A study of Homo sapiens with 16 samples.

Results

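The genes described here are 7 DNA damage repair and damage response genes that p53 is reported to induce: XPC, DDB2, POLH, POLK, RRM2B, GADD45A and GADD45B. They were selected by gene symbol and by no threshold on a measured value, although earlier results of these data were known when they were chosen, and all 7 were listed in each of the 4 comparisons, among 23396 genes listed in any of them and 19344 listed in all. The cells were U2OS, a human osteosarcoma line with wild-type p53, and poly(A) RNA of 16 libraries was sequenced. Cells were transfected with siControl, a control siRNA, or with siRFX7, which targets the transcription factor RFX7, and then received 10 µM Nutlin-3a or its solvent DMSO for 24 h, which gives 4 groups of 4 libraries. Nutlin-3a is a small molecule that keeps MDM2, the ubiquitin ligase that holds p53 low, from binding p53. The labels name neither the siRNA sequences nor whether libraries of a group came from separate cultures, so p-values measure the spread between these libraries. The tables analysed are the authors' comparisons of 2 groups each and list no value of a single library. Levels are therefore group means, and errors are the authors' standard errors (SE) from 4 against 4 libraries. In RNA of whole cultures, less RNA per cell and fewer cells that express a gene cannot be told apart.

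The 7 genes act at different points of the response to damaged DNA. XPC and the DDB2 subunit of the UV-damage binding complex find helix-distorting lesions and start global genome nucleotide excision repair. POLH (polymerase eta) and POLK (polymerase kappa) are Y-family polymerases that copy past lesions which stall the replicative enzymes. RRM2B, also called p53R2, is a small subunit of ribonucleotide reductase and supplies deoxynucleotides for repair outside S phase, while its paralog RRM2 does so for replication. GADD45A and GADD45B are small stress-response proteins that bind PCNA, the CDK1 kinase and the p38 activator MAP3K4.

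A p53 response element has 2 copies of a half-site of the form known as the p53 half-site consensus, each with a core C and G. The RefSeq promoter windows (GRCh38.p14, 250 bases before to 50 bases after a gene start) were searched on both strands for 2 half-sites with 0 or 1 base between them, both cores kept and at most 2 mismatches. Of 35116 windows, 187 (0.533%) held such a match. Windows were listed for 5 of the 7 genes (XPC, DDB2, POLH, POLK and GADD45B), and DDB2 alone had matches, both in 1 of its 2 windows and sharing a half-site. They are shown because DDB2 was among the genes most raised by Nutlin-3a. They lie on the plus strand, at chr11:47214969-47214988 with 1 mismatch and no spacer, and at chr11:47214979-47214999 with 0 mismatches and 1 base of spacer. Capitals mark the core C and G of each half-site.
DDB2 site with no spacer: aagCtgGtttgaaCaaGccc
DDB2 site with 1 base of spacer: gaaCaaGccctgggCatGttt
A match is a description of the letters and not evidence of p53 binding, and no match says only that these letters are not in the window searched.

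The base means of the authors' deposited tables, the mean normalised count per gene over 8 libraries, added up to between 27946376 and 35311111 per table. RFX7 itself stood at 18.6% of siControl with its siRNA under DMSO and at 19.4% under Nutlin-3a, by the authors' deposited tables. CDKN1A, the p53-induced cell cycle inhibitor, and MDM2 rose with Nutlin-3a in siControl, by 3.24 ± 0.04 and 2.89 ± 0.04 (log2 fold change ± SE, per the authors' deposited table). These genes were also used to settle the direction of the tables, so they are not an independent check. Of 7 osteoblast-lineage markers, 5 reached a base mean of 100 in siControl, with COL1A1 at 39039. COL1A2 was at 13.2 and SP7 was not listed. All 4 epithelial markers also reached 100 (121 to 24067), and the blood and endothelial markers listed were at 17.8 or lower, with CD3E not listed.

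Nutlin-3a raised 5 of the 7 genes in siControl cells and lowered 1. RRM2B rose most, followed by DDB2, XPC, POLH and GADD45A, while GADD45B fell and POLK was not called. Over all genes of the same comparison, 18.3% were called higher and 19.6% lower at an adjusted p under 0.05, per the authors' deposited table. The median log2 fold change of the 7 genes was 0.99, against 0.01 over all genes. In siRFX7 cells the counts were again 5 higher, 1 lower and 1 not called, with a median of 1.003, where 18.7% of all genes were called higher and 20.3% lower. The same 5 of the 7 genes thus rose with Nutlin-3a in both siRNA groups at 24 h. Whether p53 was needed for these rises was not tested.

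**Figure D1:**
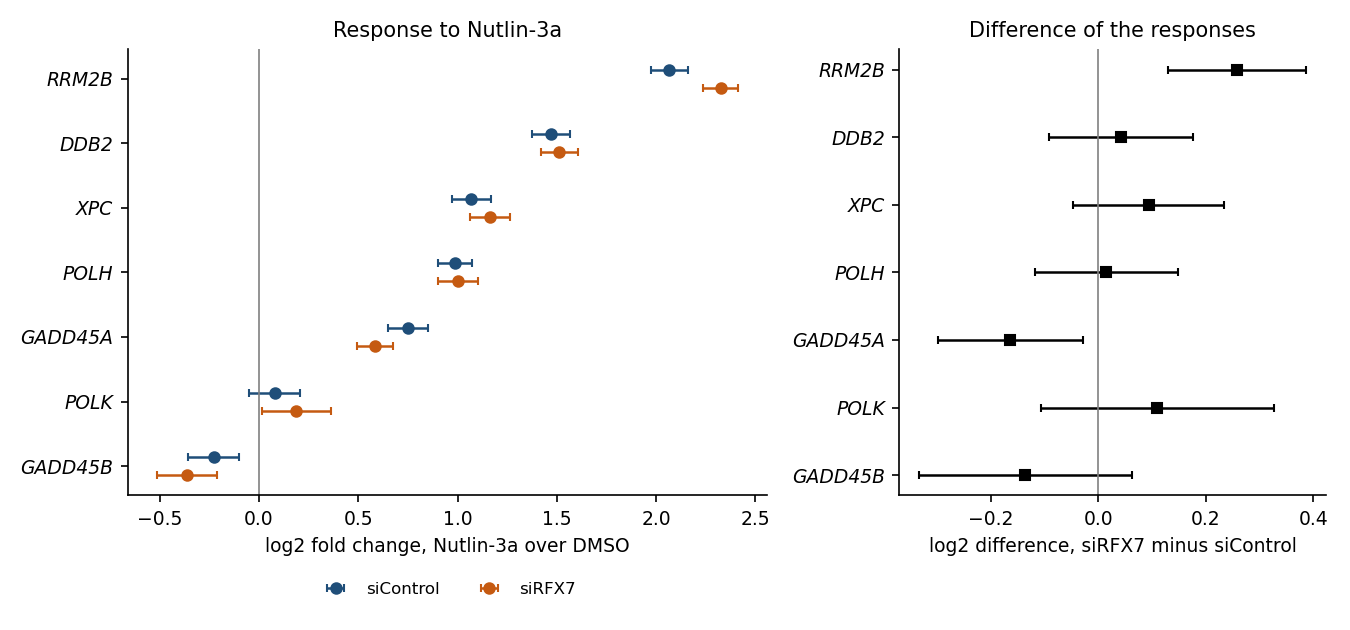
Log2 fold change with Nutlin-3a over DMSO for the 7 genes in siControl and siRFX7 cells; points are the authors' estimates from 4 against 4 libraries, bars the 95% intervals, and the right panel plots the response in siRFX7 minus that in siControl. RRM2B, DDB2, XPC, POLH and GADD45A lie above 0 in both, GADD45B below 0 in both, and the interval of POLK in siControl spans 0.

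The damage recognition genes rose between 2- and 3-fold. XPC (ENSG00000154767; chromosome 3, 14145147 to 14178783, on the minus strand, GENCODE 29 and GRCh38) had an estimated mean of 2207 normalised counts with DMSO and 4631 with Nutlin-3a in siControl, a 2.099-fold rise (95% interval 1.96 to 2.25). The authors' deposited table gives 1.07 ± 0.05 for it on the log2 scale, with a DESeq2 adjusted p of 3.23e-99. DDB2 (ENSG00000134574; chromosome 11, 47214465 to 47239240, plus strand) went from 1638 to 4542 normalised counts, a 2.77-fold rise (2.59 to 2.97). Its log2 fold change was 1.47 ± 0.05, per the authors' deposited table (adjusted p = 1.11e-189). DDB2 thus rose more than XPC by 0.40 ± 0.07 on the log2 scale, which is 5.69 times the combined SE. The combined SE of 2 genes is the root of their summed squared SEs. It leaves out any covariance between genes measured in the same libraries. In siRFX7 cells the rises were 2.24-fold for XPC and 2.85-fold for DDB2. Among the 13525 genes whose base mean reached 100 in siControl, DDB2 ranked 113 and XPC 202 from the highest log2 fold change.

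Among direct partners of both proteins, CETN2 (centrin 2) rose by 0.23 ± 0.04, per the authors' deposited table of siControl cells. RAD23B, which stabilises XPC, fell by 0.31 ± 0.03, per the authors' deposited table. DDB1, the partner of DDB2, fell by 0.09 ± 0.03, and CUL4A, the scaffold of their ubiquitin ligase, fell by 0.23 ± 0.04, per the authors' deposited table. These partners were chosen after their values were seen. XPC shares exonic sequence with genes on the opposite strand, over 1140 bases (23.8% of its exons) with AC093495.1, 413 bases (8.61%) with AC090004.1 and 318 bases (6.63%) with LSM3. Whether counting used strand is not given in the sources used here, so reads there cannot be assigned with certainty. LSM3 moved the other way with Nutlin-3a, by -0.46, per the authors' deposited table of siControl cells, and AC093495.1 and AC090004.1 had base means of at most 10.9 where they were listed.

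The translesion polymerases parted. POLH (ENSG00000170734; chromosome 6, 43576150 to 43615660, plus strand) rose from an estimated 1749 to 3468 normalised counts in siControl, 1.98-fold (95% interval 1.87 to 2.11). The authors' deposited table gives 0.99 ± 0.04 on the log2 scale, with an adjusted p of 2.95e-107, and POLH ranked 246 of 13525. POLK (ENSG00000122008; chromosome 5, 75511756 to 75601144, plus strand) stood at 669 normalised counts with DMSO and 706 with Nutlin-3a, a ratio of 1.06 (0.965 to 1.16), with an adjusted p of 0.394, per the authors' deposited table. In siRFX7 the POLK value was 0.19 ± 0.09, per the authors' deposited table, with an adjusted p of 0.0814. POLH exceeded POLK in response by 0.91 ± 0.08 in siControl and by 0.81 ± 0.10 in siRFX7 on the log2 scale. POLH and XPC did not differ beyond their errors in siControl, with a gap of 0.08 or 1.23 combined SEs. The other neighbours in the order of responses there were 3.30 to 8.65 combined SEs apart. POLK shares exonic sequence on the opposite strand with AC010245.1, over 754 bases (8.28% of its exons), and with COL4A3BP, over 230 bases (2.53%), and POLH shares 4 bases with GTPBP2.

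Per kilobase of exon, the level of POLH was 6.72 times that of POLK in siControl cells with DMSO and 12.6 times with Nutlin-3a. With siRFX7 the ratio was 5.53 with DMSO and 9.73 with Nutlin-3a. Counted per kilobase of the principal transcript instead of all exons, the 4 ratios were 4.37, 8.20, 3.59 and 6.32. POLK was lowest per kilobase of the 7 genes in all 4 groups with either length. POLI, another Y-family polymerase, rose by 0.40, per the authors' deposited table of siControl cells, and RAD18, the ligase that marks PCNA to recruit these polymerases, fell by 0.80.

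RRM2B (ENSG00000048392; chromosome 8, 102204502 to 102239118, minus strand) had the highest response of the 7. Its estimated mean was 4563 normalised counts with DMSO and 19116 with Nutlin-3a in siControl, a 4.19-fold rise (95% interval 3.93 to 4.47). In siRFX7 it went from 2079 to 10419, a 5.01-fold rise. Counts were normalised separately for siControl and siRFX7 here, so they compare treatments and not siRNA groups. The authors' deposited tables give 2.07 ± 0.05 and 2.33 ± 0.04 on the log2 scale, each with an adjusted p listed as 0. RRM2B ranked 65 of 13525 genes in siControl and 33 of 12867 in siRFX7.

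The other subunits of the same enzyme moved the opposite way. RRM2 fell by 1.03 ± 0.05 in siControl and by 1.18 ± 0.05 in siRFX7, per the authors' deposited tables. RRM1, the large catalytic subunit, fell by 0.64 ± 0.04 in siControl and by 0.72 ± 0.05 in siRFX7, per the authors' deposited tables. The ratio of RRM2B to RRM2 therefore shifted 8.55-fold in siControl, a difference of 3.10 ± 0.07 on the log2 scale, and 11.3-fold in siRFX7, a difference of 3.50 ± 0.07. Per kilobase of exon, RRM2B stood at 0.649 times RRM2 in siControl with DMSO and at 5.55 times with Nutlin-3a. With siRFX7 these ratios were 0.312 with DMSO and 3.54 with Nutlin-3a. With the principal transcript length they were 0.471 and 4.02 in siControl, and 0.227 and 2.57 in siRFX7. RRM2 was thus the more abundant small subunit transcript with DMSO and RRM2B with Nutlin-3a, in both siRNA groups and with either length. Cell cycle genes fell in the same comparison: CDK1 by 0.91 ± 0.06 and CCNB1 by 0.68 ± 0.05, per the authors' deposited table of siControl cells. The part of cell cycle changes in the shift between subunits was not tested.

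**Figure D2:**
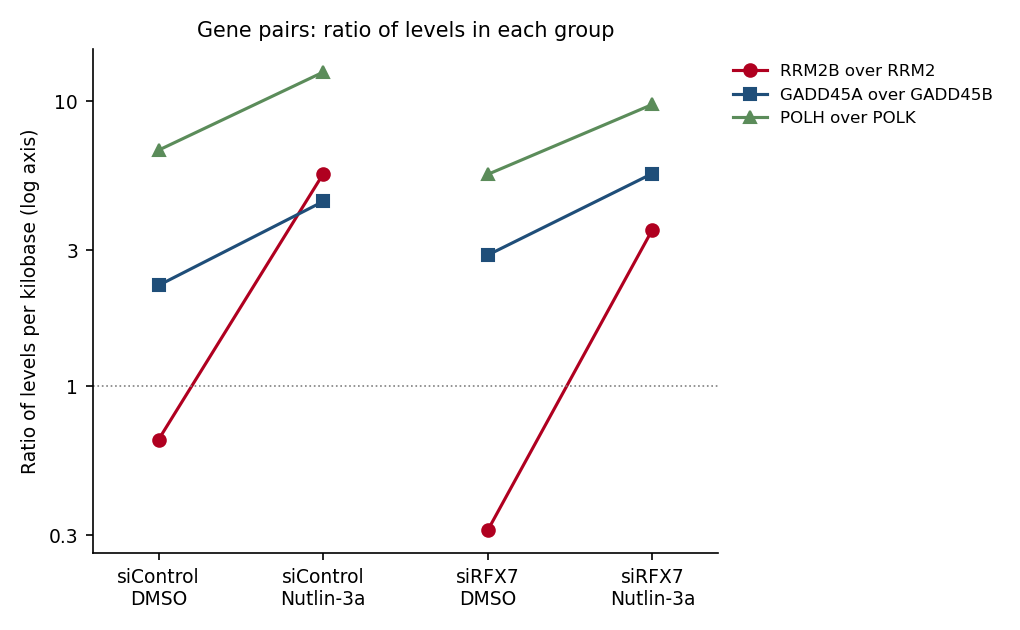
Ratio of levels per kilobase of exon (log axis) for RRM2B over RRM2, GADD45A over GADD45B and POLH over POLK in each of the 4 groups; points are ratios of group means, without error bars, and lines join DMSO to Nutlin-3a. RRM2B over RRM2 lies below 1 with DMSO (0.649 and 0.312) and above 1 with Nutlin-3a (5.55 and 3.54).

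The GADD45 paralogs responded in opposite directions. GADD45A (ENSG00000116717; chromosome 1, 67685061 to 67688338, plus strand) rose from an estimated 2514 to 4223 normalised counts in siControl, 1.68-fold (95% interval 1.57 to 1.80). The authors' deposited table gives 0.75 ± 0.05 on the log2 scale (adjusted p = 1.02e-46). GADD45B (ENSG00000099860; chromosome 19, 2476122 to 2478259, plus strand) went from 1151 to 982 normalised counts, 85.3% of its DMSO level (78.0% to 93.3%). Its log2 fold change was -0.23 ± 0.07, per the authors' deposited table (adjusted p = 0.0019). In siRFX7, GADD45A rose by 0.59 ± 0.05 on the log2 scale, per the authors' deposited table, and GADD45B stood at 77.7%. The responses of the paralogs differed by 0.98 ± 0.08 in siControl and by 0.95 ± 0.09 in siRFX7 on the log2 scale. Per kilobase of exon, GADD45A stood at 2.26 times GADD45B with DMSO and 4.44 times with Nutlin-3a in siControl, and at 2.88 and 5.57 times in siRFX7. The third family member, GADD45G, was in none of the 4 tables.

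In 4 of 5 lists of related genes more members fell than rose with Nutlin-3a, and in the list of other p53-activated genes more rose than fell. The counts are to be read beside the 18.3% of all genes called higher and 19.6% called lower, and no list was tested against the rest. These lists were chosen with earlier results of these data known. Of 25 other nucleotide excision repair genes, 5 were called higher and 11 lower with Nutlin-3a in siControl, with a median log2 fold change of -0.07. Among those called whose base mean reached 100, the lowest were the single-strand binding proteins RPA2 and RPA1, which fell by 0.58 and 0.51, per the authors' deposited table. The highest was ERCC6, of transcription-coupled repair, which rose by 0.30, per the authors' deposited table. Of 14 other translesion and damage tolerance genes, 2 were called higher and 8 lower (median -0.28). POLD3, a subunit of polymerases delta and zeta, fell by 0.91 and USP1, which deubiquitinates PCNA, fell by 0.84, per the authors' deposited table. REV3L, the catalytic subunit of polymerase zeta, rose by 0.38.

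Of 13 other genes of deoxynucleotide supply, 1 was called higher and 7 lower (median -0.25). Thymidine kinase TK1 fell by 0.90, per the authors' deposited table, and NME1 was the member that rose, by 0.18. Of 10 family members and partners of GADD45, 9 were listed, 1 (CDKN1A) was called higher and 6 lower (median -0.23). MAP3K4, the kinase that GADD45 proteins activate, fell by 0.36, per the authors' deposited table. Their shared partner PCNA was at -0.04 ± 0.04 in siControl, with an adjusted p of 0.430, and at -0.26 in siRFX7. Of 12 other repair and stress genes reported as p53-activated, 6 were called higher and 4 lower (median 0.30). SESN1, SESN2 and TP53I3 rose by 2.09, 1.56 and 1.44, while the Fanconi gene FANCC fell by 0.52, per the authors' deposited table. In siRFX7 the calls were 5 higher and 9 lower for excision repair and 2 and 9 for translesion synthesis. They were 0 and 7 for deoxynucleotide supply, 1 and 5 for GADD45 partners and 6 and 4 for the last list. Over all genes of that comparison, 18.7% were called higher and 20.3% lower.

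**Figure D3:**
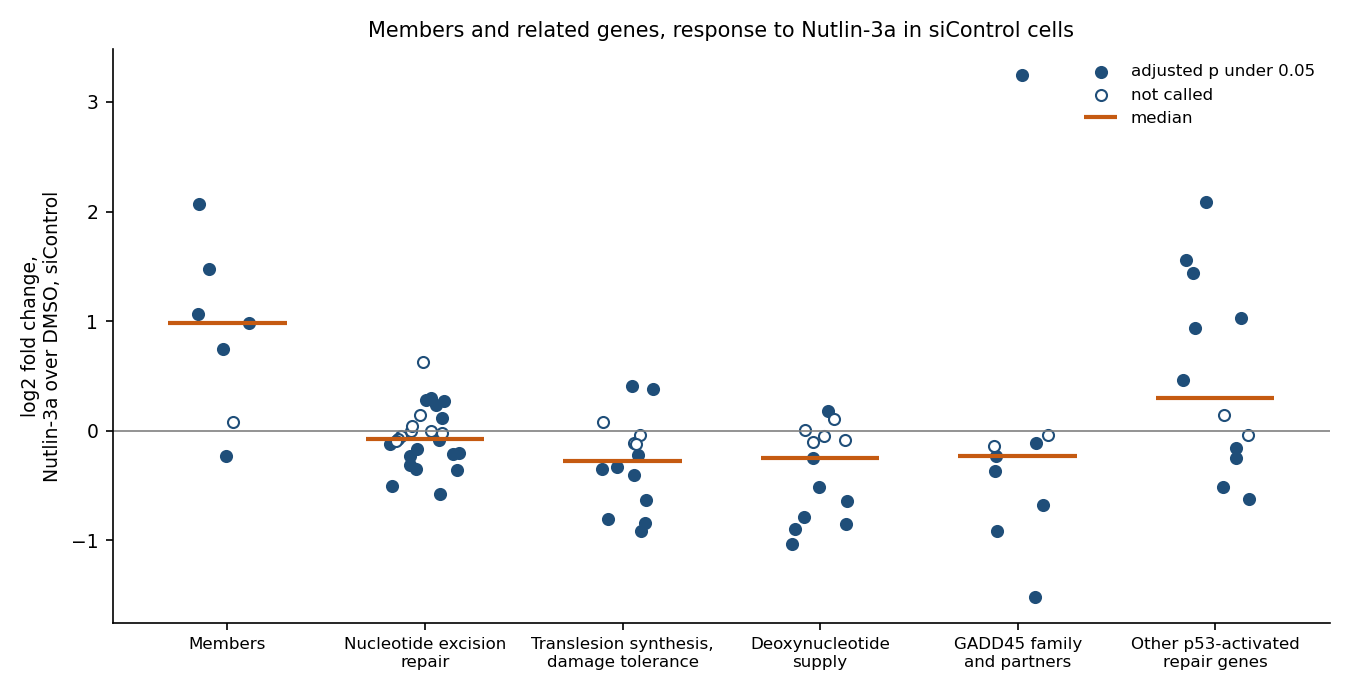
Log2 fold change with Nutlin-3a over DMSO in siControl for the 7 genes and the 5 lists of related genes; each point is 1 gene, filled where its adjusted p is under 0.05 and open otherwise, and lines mark medians. The median of the 7 genes, the group named Members, is 0.99, and those of the lists run from -0.28 to 0.30.

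Of the 7 genes, 6 were lower with siRFX7 than with siControl under DMSO, and the same 6 under Nutlin-3a. These comparisons share libraries with those of Nutlin-3a over DMSO, and so are read side by side and not as separate evidence. Whether less RFX7 or another effect of the siRNA lay behind the lower levels was not tested. Under DMSO 0 of the 7 were higher, 6 were lower and POLK was not called, where 19.9% of all genes were called higher and 17.5% lower, per the authors' deposited table. Under Nutlin-3a 1 was higher (POLK) and 6 were lower, where 17.2% of all genes were called higher and 15.4% lower. The median log2 fold change of the 7 was -0.32 under DMSO and -0.30 under Nutlin-3a, against -0.00239 and -0.00535 over all genes.

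RRM2B, the nucleotide supply gene, stood at 60.0% of siControl under DMSO and at 71.8% under Nutlin-3a, log2 fold changes of -0.74 ± 0.05 and -0.48 ± 0.05, per the authors' deposited tables. Its paralog RRM2 was higher with siRFX7, by 0.32 under DMSO and 0.17 under Nutlin-3a, per the authors' deposited tables. XPC stood at 68.8% and 73.5%, with -0.54 ± 0.05 and -0.44 ± 0.05, per the authors' deposited tables (adjusted p = 2.68e-23 under DMSO). DDB2, its partner in damage recognition, stood at 80.0% and 82.5%, with -0.32 ± 0.05 and -0.28 ± 0.04, per the authors' deposited tables (adjusted p = 3.51e-08 under DMSO). GADD45B stood at 71.0% and 64.7%, with -0.49 ± 0.07 and -0.63 ± 0.07, per the authors' deposited tables. Under Nutlin-3a, XPC and RRM2B were 0.503 combined SEs apart and RRM2B and GADD45B 1.72, so these neighbours in the order did not differ beyond their errors. GADD45B was thus among the genes lowest with siRFX7 although Nutlin-3a did not raise it.

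GADD45A and POLH were the genes lowered least under DMSO. GADD45A stood at 90.5% of siControl under DMSO (adjusted p = 0.00291, per the authors' deposited table) and at 81.0% under Nutlin-3a. POLH stood at 88.4% (adjusted p = 0.00205, per the authors' deposited table) and 89.5%. POLK was 1.07 times siControl under DMSO (adjusted p = 0.30, per the authors' deposited table) and 1.16 times under Nutlin-3a (95% interval 1.04 to 1.29, adjusted p = 0.027). POLI and REV1, further Y-family polymerases, were lower with siRFX7. POLI was at -0.44 and -0.33 and REV1 at -0.29 and -0.19 under DMSO and Nutlin-3a, per the authors' deposited tables. DDB1 was higher with siRFX7, by 0.14 and 0.12, per the authors' deposited tables. Calls in the related lists under DMSO are to be read beside the 19.9% of all genes called higher and 17.5% called lower. Of 25 excision repair genes, 6 were called higher and 5 lower, and of 14 translesion genes 1 and 6. The counts were 3 and 2 of 13 deoxynucleotide genes, 5 and 3 of 9 GADD45 partners, and 4 and 5 of 12 other p53-activated genes. No list was tested against the rest.

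**Figure D4:**
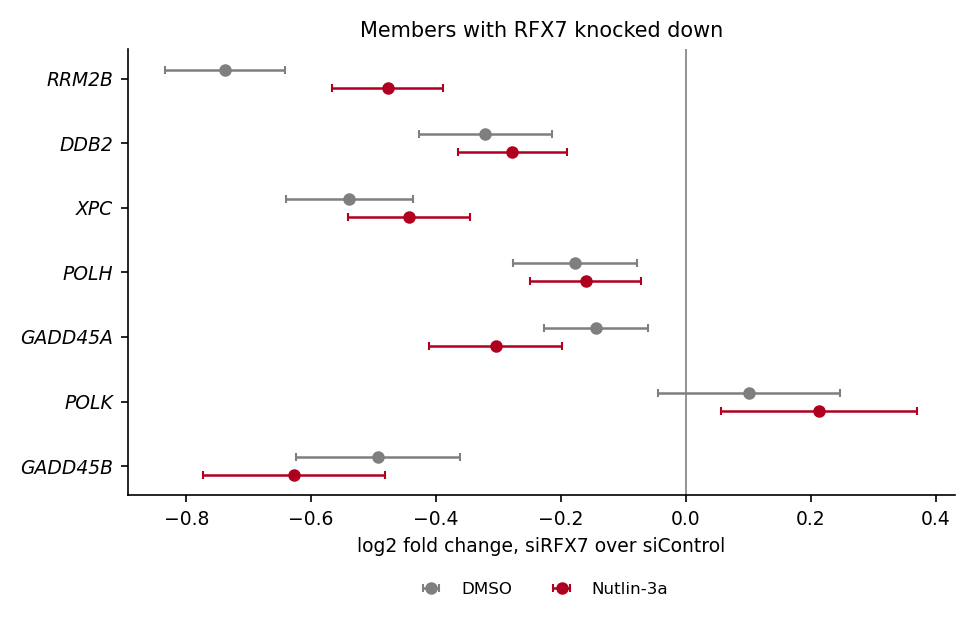
Log2 fold change of siRFX7 against siControl for the 7 genes under DMSO and under Nutlin-3a; points are the authors' estimates from 4 against 4 libraries, bars the 95% intervals. RRM2B, XPC, GADD45B, DDB2, GADD45A and POLH lie below 0 under both treatments, and POLK lies above 0 under Nutlin-3a.

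One sequence feature went with lower levels in siRFX7 libraries over many genes. A scan of these same data covered 14467 heptamers carried by the annotated 3′ UTRs of at least 200 genes. GTATCTA had the lowest mean log2 fold change with siRFX7, averaged over both treatments (-0.18). It was present in the 3′ UTRs of 981 of 11195 genes (8.76%). Carriers had a median of -0.14 under DMSO against 0.03 for the others, and of -0.10 against 0.02 under Nutlin-3a. The scan picked the heptamer for the low values of its carriers, so these medians are not separate evidence. Among the 7 genes, DDB2 and RRM2B had 1 copy each and the other 5 had none; of these, XPC, GADD45B, GADD45A and POLH were lower with siRFX7 and POLK was not. The DDB2 copy is in exon 10 of 10, at base 236 of the 3′ UTR (chr11:47239085-47239091, plus strand, GENCODE 29), and is shown with its surroundings, the heptamer in capitals.
DDB2 3′ UTR: agggcccctctGTATCTAgcctggaaccaa
The part of this heptamer in the lower levels was not tested.

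The response to Nutlin-3a differed between siRFX7 and siControl cells for 1 of the 7 genes. RRM2B rose more in siRFX7, by 0.26 ± 0.07 (difference ± SE; 95% interval 0.13 to 0.39; adjusted p = 0.0123 by a normal test on the DESeq2 estimates, over 21339 genes). With the statistic divided by its robust SD among genes of like base mean, that adjusted p was 0.116. Over all genes, 0.173% had a higher response in siRFX7 and 0.764% a lower one. GADD45A had a lower response in siRFX7 by 0.16 ± 0.07 (-0.30 to -0.03), which was not called (adjusted p = 0.524). The other 5 genes were not called, with intervals of -0.05 to 0.23 for XPC, -0.09 to 0.18 for DDB2, -0.12 to 0.15 for POLH, -0.11 to 0.33 for POLK and -0.33 to 0.06 for GADD45B. Differences inside these intervals could not be told from 0 here. CDKN1A went the other way from RRM2B, with a difference of -0.26 ± 0.05 (adjusted p = 0.000305).

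Set against siControl with DMSO as 100%, the 4 groups ranked differently by gene. RRM2B stood at 419% in siControl with Nutlin-3a, at 60.0% in siRFX7 with DMSO and at 300.5% in siRFX7 with Nutlin-3a. DDB2 stood at 277%, 80.0% and 228%, and XPC at 209.9%, 68.8% and 154%. POLH followed with 198%, 88.4% and 177%, and GADD45A with 168%, 90.5% and 136%. For these 5 genes, siRFX7 cells thus stood with Nutlin-3a above siControl cells with DMSO and below siControl cells with Nutlin-3a. POLK was at 105.6%, 107% and 122%. GADD45B was the member that was lowest when both were applied, at 85.3%, 71.0% and 55.2%.

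**Figure D5:**
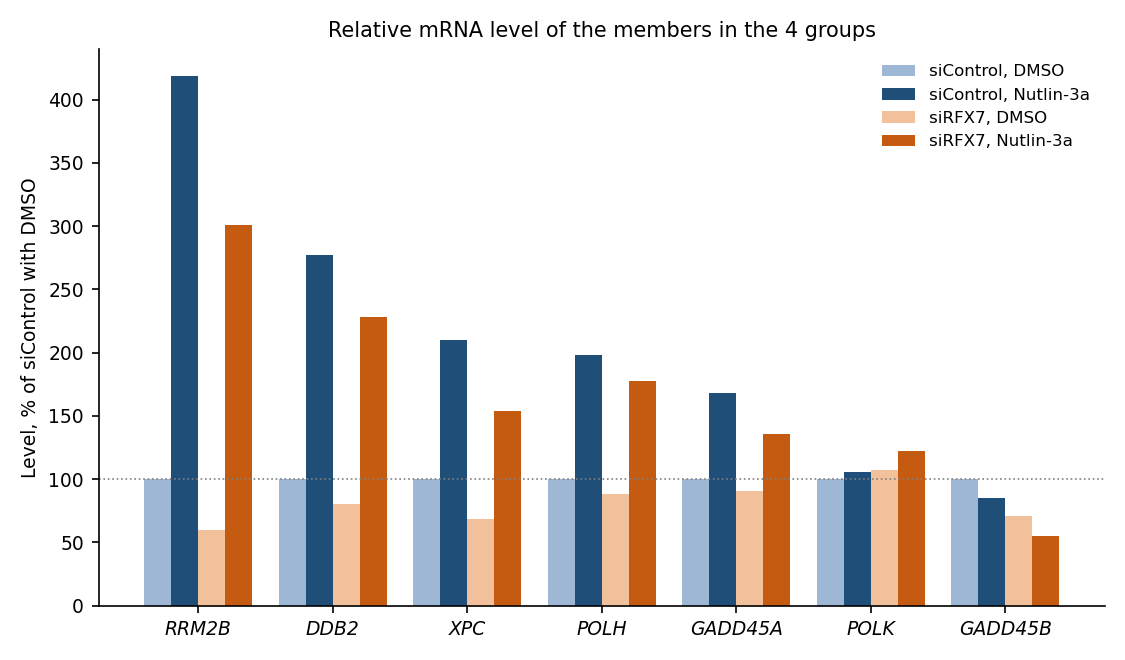
Estimated level of the 7 genes in the 4 groups as a percentage of siControl with DMSO (linear axis from 0; dotted line at 100%); bars are computed from the authors' fold changes and carry no error bars. RRM2B spans 60.0% to 419%, GADD45B falls to 55.2% in siRFX7 with Nutlin-3a, and POLK stays between 100% and 122%.

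Per kilobase, GADD45A was the most abundant of the 7 transcripts with DMSO and RRM2B with Nutlin-3a, in both siRNA groups and with either length. The order of the genes between the extremes changed with the length used, and so is not given.

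The patterns of the 7 genes were compared with those of 12747 genes whose base mean reached 100 in all tables, by the Euclidean distance over 3 log2 fold changes (Nutlin-3a in siControl, Nutlin-3a in siRFX7 and siRFX7 under DMSO). RRM2B had no gene within 0.25, and the nearest were SEMA3B at 0.32 and FDXR, a known p53 target, at 0.37. DDB2 was nearest to TP53I3 (0.17) and RBFOX3 (0.18), and XPC to C1RL (0.10) and ASS1 (0.17), with 7 and 9 genes within 0.25. POLH was nearest to GPC1 (0.04) and TRNP1 (0.05), GADD45A to MIB2 (0.04) and CES3 (0.05), and GADD45B to PPP3R1 (0.04) and CYP51A1P1 (0.06), a pseudogene whose reads may be split with its parent gene. POLK, near 0 in these comparisons, was nearest to UBE4A and SLC6A9 (both 0.02) and had 2304 genes within 0.25.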

How the data were processed

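Per the labels' protocols, poly(A) RNA was sequenced from stranded libraries; groups were taken from sample titles. Per the submitters' processing notes, the tools include bcl2fastq 2.19.1.403, Trimmomatic 0.39, FastQC 0.11.9, cutadapt 2.10, SAMtools 1.10, Picard, featureCounts 1.6.5 and DESeq2 1.20.0, with build hg38. The aligner and the annotation are not given in the sources used here. The authors deposited 4 DESeq2 tables of 2 groups each, and no column was left unmapped. The deposited base mean is a signal, the mean normalised count over a comparison's libraries. The deposited log2 fold changes and their SEs were used as they stand; whether they were shrunken is not stated. The deposited Wald statistic is a score and served for checks. The deposited p-values and adjusted p-values (Benjamini-Hochberg over a table's genes) gave the calls, at an adjusted p under 0.05.

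Direction was settled from the signs of RFX7, CDKN1A and MDM2. Group means were solved from base mean and log2 fold change. Tables were normalised separately, so levels across all 4 groups were built from fold changes. The difference between responses used summed squared SEs and a two-sided normal test, adjusted over 21339 genes. Gaps between 2 genes of the same comparison also used summed squared SEs, with no test. Covariance between genes of the same libraries was left out. Lengths, positions and 3′ UTRs came from GENCODE 29. Computation used Python 3.11.15, NumPy 2.4.6, SciPy 1.17.1, pandas 2.3.3 and matplotlib 3.10.9.

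The members and lists were chosen with earlier results of these data known. Genes were named by rule: all 7, RFX7, CDKN1A, MDM2, GADD45G, RRM2, RRM1 and PCNA, up to 3 per list and direction among called genes whose base mean reached 100, and the 2 nearest in pattern to each member. Some genes that this rule names are not reported here. Direct partners and overlapping genes were added after their values were seen. Alternatives varied the threshold, the adjustment, a minimum size, a base mean minimum, the centring, the tables used and the spread of the statistic.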

Additional observations from a re-analysis of the deposited data

Results flagged for a closer look

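5 of the genes named had a response to Nutlin-3a that differed between siRFX7 and siControl cells by the normal test on the authors' DESeq2 estimates, adjusted over all genes. Over all genes, 0.173% had a higher response in siRFX7 and 0.764% a lower one. The genes named are no random set, and CCNB1 and SESN2 were named for the size of their response in siControl. For RRM2B the response was 0.26 higher in siRFX7 on the log2 scale (adjusted p = 0.0123), a call that was lost with the statistic divided by its robust SD (adjusted p = 0.116). It was lower in siRFX7 for CCNB1, a mitotic cyclin, by -0.32 (adjusted p = 2.72e-05), with responses of -1.001 in siRFX7 and -0.68 in siControl. It was also lower for CDKN1A, at -0.26 (adjusted p = 0.000305), for PCNA, at -0.22 (adjusted p = 0.00816), and for SESN2, a stress-induced regulator of metabolism, at -0.32 (adjusted p = 0.00244). Of these 5 genes, RRM2B alone had a larger positive response in siRFX7. Values with the robust SD are reported here for the 7 members only, and so not for CCNB1, CDKN1A, PCNA or SESN2.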

How the results depend on the processing

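Of 217 values of the 7 genes under the alternatives, 176 kept their direction and their side of the threshold, 40 kept their direction but were no longer called, 1 became called (POLK in siRFX7, at 0.21 after recentring on the median) and 0 reversed. Direction could change only in the 35 recentred values and the 7 taken from the siRFX7 against siControl comparisons. The other settings left the log2 fold change as it was, so the absence of reversals there was fixed in advance. With a base mean of at least 100, all 35 values kept both. That limit could remove none of the 7 genes, whose lowest base mean was 551 (GADD45B in siRFX7).

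A minimum size changed most counts. With a size of at least 1, the 5 genes higher with Nutlin-3a in siControl became 3, and the 5 in siRFX7 became 4. The 1 gene lower became 0 in either siRNA group with sizes of at least 0.5 and 1, and in siControl also with Bonferroni adjustment. The 6 genes lower with siRFX7 under DMSO became 2 with a size of at least 0.5 and 0 with 1. Under Nutlin-3a the 6 became 1 and 0, and the 1 gene higher became 0 with a threshold of 0.01, either size or Bonferroni adjustment. The 1 gene with a higher response in siRFX7, RRM2B, became 0 with a threshold of 0.01, a size of at least 0.5, Bonferroni adjustment or the robust SD. The principal transcript length was chosen after seeing the data.

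No paired analysis was possible because the tables analysed list no value of a single library. For the same reason no library was left out in turn, and depth per library is unknown.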
